A study of Mus musculus with 10 samples.

Results

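Macrophages and microglia were followed in the lens epithelium through 10 genes, Csf1r, Aif1, Adgre1, Cd68, Lyz2, C1qa, C1qb, C1qc, Ptprc and Gpnmb, out of 50763 genes counted. They were chosen by name, as genes that these cells use, with earlier results of these data known. RNA was sequenced from 10 pools of explanted lens epithelia of FVB/N mice at 3 weeks of age. Of these pools 3 came from wild-type (WT) mice, 3 from the homozygous transgenic family OVE853 and 4 from the homozygous family OVE918. In both families a constitutively active form of human TGF-β1 is made and secreted under the murine αA-crystallin promoter, which drives it in the lens, and the WT mice are of the same strain. A WT or OVE853 pool held epithelia of up to 9 mice and an OVE918 pool of up to 7, so that each replicate is a pool. The mice of a group came from different litters and were balanced for sex, and the makeup of each pool is not given in the sources used here. The transgene acts from the lens, and the whole epithelium was taken, not the fibrotic plaque alone.

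Macrophages are the phagocytes that live in most tissues, and microglia are their counterpart in the retina and brain. Both depend on signals through the receptor CSF1R, take up dying cells and debris, and make C1q, the protein that opens the classical complement pathway. The lens itself has no vessels and holds few such cells, whereas the ciliary body and retina beside it hold many.

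With all 10 genes tested in a fit of 18058 genes, Gpnmb (5.01-fold), Cd68 (4.00-fold) and C1qa (2.61-fold) rose in OVE918 against WT. The C1qa call depended on single libraries. Of all genes 8.79% were called in OVE918 and 3.45% were called higher, where a call needs both an adjusted p and a fold change. In OVE853 the estimates for C1qa, C1qb, Cd68 and Gpnmb were 2.34-fold to 2.60-fold, but 0 of the 10 were called by edgeR's quasi-likelihood test. Of all genes 6.89% were called in OVE853 and 3.17% were called higher. An unadjusted p under 0.05 was found for 5 of the 10, a share not counted over all genes. Csf1r, Aif1, Adgre1, Lyz2, Ptprc, C1qb and C1qc were not called in either line. Of 9 genes of macrophages at vessels and tissue borders, 6 were called lower in OVE853 and 5 in OVE918, Mrc1 in both. This compares with 3.72% and 5.34% of all genes called lower. Mrc1, F13a1, Pf4 and Cd163 passed the minimum count for this fit only through WT, where they were high. The number called lower thus depends on that filter. Stab1 and Folr2, of the same list, had estimates above WT and were not called.

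Between 24073311 and 31908525 read pairs were counted on genes per library. The 10 genes together had 632 to 1682 counts in the WT libraries, 1721 to 2975 in OVE853 and 1898 to 3363 in OVE918. All of 8 lens epithelium markers were tested in the fit of 18058 genes and 0 were called in either line. Of these Cdh1 (log2 fold changes -0.76 and -0.59) and Epha2 (0.89 and 0.90) missed only the fold change threshold in OVE853 and OVE918. Both are named here after their values were seen. The summed level of the 8 is given in CPM (counts per 1e6 counts, scaled here by TMM factors that even out library composition). It was mostly Cryaa and ran from 154000 to 159000 in WT. In OVE853 it was 104000 to 119000, below every WT library, and in OVE918 129000 to 196000, overlapping WT. WT replicate 3 stood apart: the photoreceptor gene Crx had 949 counts in it and 43 to 241 in the other libraries. This library was also the highest of the 3 WT libraries for 7 of the 10 genes, namely Csf1r, Aif1, Adgre1, Lyz2, C1qa, C1qb and C1qc, and values without it are given where the call of a named gene changed. In RNA of whole tissue, fewer cells of a type and less RNA per cell cannot be told apart.

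Levels of different genes were compared per length, as FPKM. C1qa was the highest of the 10 in each group, at 5.54 ± 2.97 FPKM (SD, n = 3) in WT, 15.1 ± 2.78 (n = 3) in OVE853 and 13.1 ± 4.94 (n = 4) in OVE918. It lay above 83.6% of the genes with a known length in WT and above 92.4% and 92.1% of them in OVE853 and OVE918. In WT it was followed by C1qc (2.64 ± 1.16 FPKM), Gpnmb (2.46 ± 1.25), Lyz2 (2.46 ± 1.00), C1qb (1.48 ± 0.810), Csf1r (1.35 ± 0.632) and Cd68 (0.683 ± 0.142), and the libraries of each of these neighbours overlapped. Aif1 (0.227 ± 0.167 FPKM), Adgre1 (0.190 ± 0.0767) and Ptprc (0.0734 ± 0.0392) were the lowest, with Aif1 below every WT library of Cd68 and Ptprc below every WT library of Adgre1. This order rests on the exon lengths taken, such as 3665 bp for Aif1, 2995 bp for Lyz2, 2532 bp for C1qb and 1198 bp for Cd68. In counts Aif1 (13, 11 and 44 in WT) and Cd68 (23, 23 and 18) overlapped. Which transcripts of each gene were made was not tested. In OVE918 the order began with C1qa and then Gpnmb, at 11.4 ± 3.20 FPKM, and these overlapped.

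**Figure D1:**
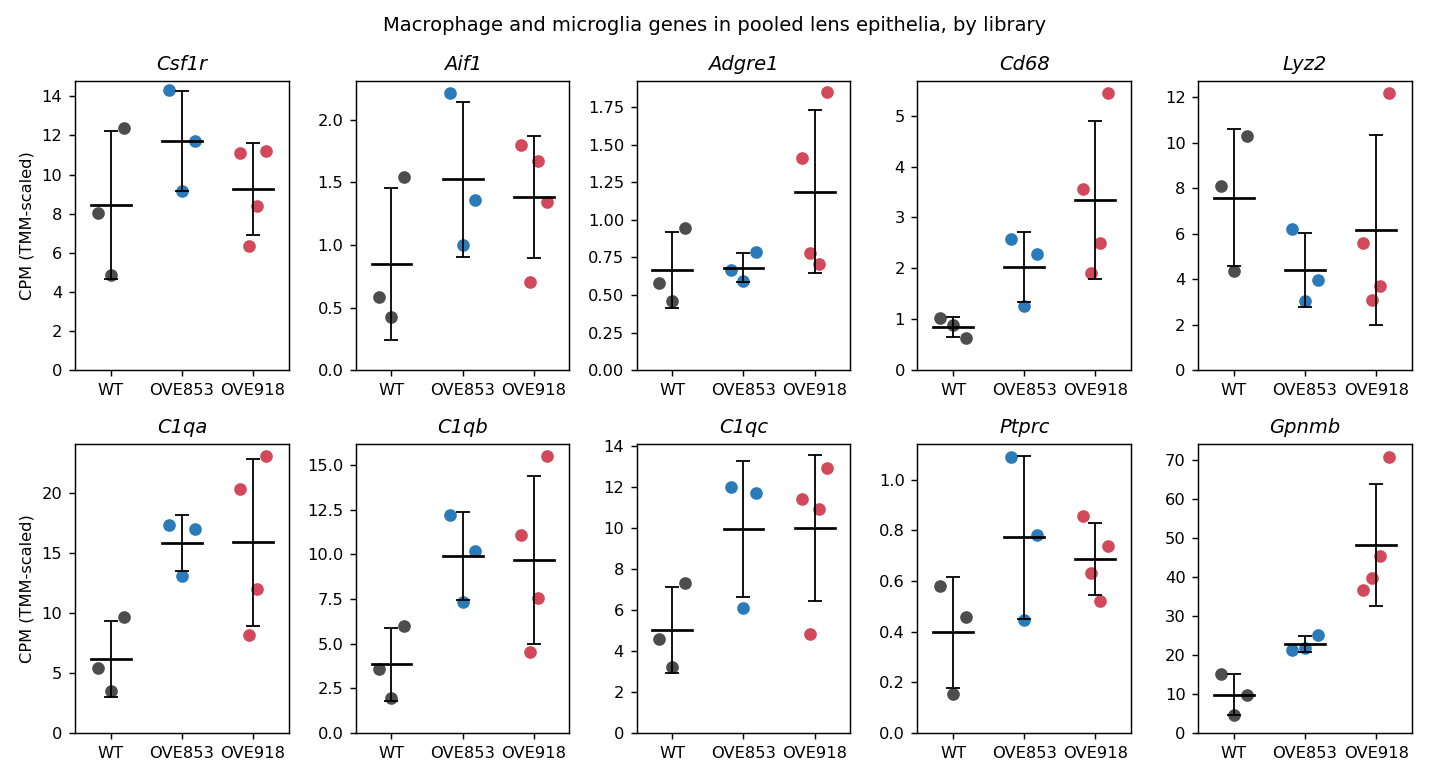
Level of each of the 10 genes in each library, in CPM on an axis from 0, for WT (3 pools), OVE853 (3 pools) and OVE918 (4 pools). Points are libraries, thick lines are group means and error bars are SD, and the OVE918 libraries of Gpnmb and Cd68 all lie above the WT libraries whereas the 3 groups overlap for Csf1r and Lyz2.

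Csf1r, the receptor through which macrophages and microglia receive survival signals, was not called in either line. Its level was 8.05, 4.85 and 12.4 CPM in the WT libraries, 14.3, 9.15 and 11.7 CPM in OVE853 and 11.1, 6.33, 8.40 and 11.2 CPM in OVE918. The 3 groups overlapped, with log2 fold changes of 0.49 (95% confidence interval -0.22 to 1.21) in OVE853 and 0.16 (-0.51 to 0.84) in OVE918 against WT. Csf1r reached 2 FPKM in too few libraries for the main test, which took genes at this level in 5 of the 10 libraries, so these values come from the same fit on all 18058 genes that passed edgeR's filterByExpr, a filter on counts alone. The adjusted p (FDR) was 0.313 and 0.758 by the quasi-likelihood test of edgeR, adjusted after Benjamini and Hochberg. Without WT replicate 3 the values were 0.83 and 0.52, not called, and without WT replicate 2 the OVE918 difference turned to -0.09.

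Ptprc encodes CD45, a phosphatase on all white blood cells. It had 13, 4 and 13 counts in WT, 36, 12 and 23 in OVE853 and 20, 17, 14 and 16 in OVE918, so that counting error alone is wide. On this scale of a few counts the OVE918 libraries were all above the highest WT count, but in CPM the groups overlapped. The log2 fold changes were 0.98 (-0.11 to 2.07, FDR 0.193) in OVE853 and 0.81 (-0.24 to 1.86, FDR 0.263) in OVE918, again in the fit on all genes that passed filterByExpr.

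Aif1, which encodes the calcium-binding protein IBA1 used to stain microglia, had 0.581, 0.423 and 1.54 CPM in WT, 2.21, 1.00 and 1.36 CPM in OVE853 and 1.80, 0.708, 1.67 and 1.34 CPM in OVE918. The level of WT replicate 3 lay within those of both lines. The log2 fold change was 0.85 (FDR 0.277) in OVE853 and 0.71 (FDR 0.350) in OVE918 in the filterByExpr fit. Without WT replicate 3 these values were at their highest of any library left out, 1.57 and 1.45, and still not called.

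Adgre1, an adhesion receptor by which mouse macrophages are commonly identified, had 0.581, 0.462 and 0.947 CPM in WT, 0.665, 0.593 and 0.783 CPM in OVE853 and 1.41, 0.782, 0.706 and 1.85 CPM in OVE918. All 3 OVE853 libraries lay within the WT range, and OVE918 replicates 1 and 4 lay above every other library. The log2 fold change was 0.04 (-0.94 to 1.02) in OVE853 and 0.85 (-0.07 to 1.76) in OVE918, with FDRs of 0.956 and 0.185 in the filterByExpr fit.

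Cd68, a glycoprotein of the lysosomes of phagocytes, rose in OVE918. Its level was 1.03, 0.885 and 0.631 CPM in WT, 2.57, 1.26 and 2.28 CPM in OVE853 and 3.56, 1.90, 2.49 and 5.44 CPM in OVE918. Every library of either line lay above every WT library. In the filterByExpr fit the log2 fold change was 2.00 (SE 0.42, FDR 0.00842) in OVE918, which is 4.00-fold, and 1.28 (SE 0.44, FDR 0.0745) in OVE853, which did not pass but did so without OVE918 replicate 4 (1.27, FDR 0.0469). Cd68 reached 2 FPKM in 4 of the 10 libraries, all of the transgenic lines, and so was not in the main test. The OVE918 call was kept under all alternatives run, with a log2 fold change of 1.61 to 2.19, and WT replicate 3 was the lowest WT library for this gene.

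Gpnmb, a membrane glycoprotein of phagocytes and pigment cells that rises under lysosomal stress, showed the largest change of the 10. It had 15.2, 4.58 and 9.68 CPM in WT, 21.3, 21.8 and 25.1 CPM in OVE853 and 36.7, 39.7, 45.4 and 70.8 CPM in OVE918. The 3 groups did not overlap, with OVE918 above OVE853 and OVE853 above WT. In the main test the log2 fold change against WT was 2.30 (SE 0.37, FDR 0.00208) in OVE918, 4.93-fold, and 1.22 (SE 0.38, FDR 0.0552) in OVE853. The OVE918 call was kept under all alternatives run. In OVE853 the gene passed without WT replicate 1 (log2 fold change 1.67, FDR 0.0117) and without OVE918 replicate 4 (1.22, FDR 0.0374), which shares the estimate of the spread. The authors list Gpnmb among the genes elevated in both lines, from a fit in edgeR 4.6.3 with RefSeq gene lengths. The cause of this difference in the OVE853 call was not tested. OVE918 was 1.08 higher than OVE853 on the log2 scale (0.30 to 1.86), and this difference did not pass (FDR 0.126).

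Pigment cells of the iris, ciliary body and retina also use Gpnmb, so their markers were read beside it. Of 10 pigment cell genes 9 passed filterByExpr, and 0 were called higher in either line while 3 (Ttr, Rpe65 and Rlbp1) were called lower in both. Of all genes 3.72% were called lower in OVE853 and 5.34% in OVE918. The other genes tested, named after their values were seen, went in both directions uncalled. Their log2 fold changes were 0.53 and 0.82 for Tyr, -0.12 and 0.46 for Mitf, -0.41 and 0.52 for Mlana, -0.26 and -0.16 for Pmel, -0.34 and -0.77 for Tyrp1 and -0.64 and -0.24 for Dct. Without WT replicate 3, in which Rlbp1 had 5982 counts against 669 and 910 in the other WT libraries, Rpe65 was not called in OVE853 (log2 fold change -2.04, FDR 0.113) nor Rlbp1 in OVE918 (-1.15, FDR 0.0841). The count in OVE853 was 1 without any 1 of its own libraries. The summed level of the 10 pigment cell genes was 89.1 to 327 CPM in WT, 50.4 to 89.8 CPM in OVE853 and 52.2 to 104 CPM in OVE918. Tyrp1, an enzyme of melanin synthesis, had 40.3 ± 29.2 CPM in WT, 31.8 ± 7.84 in OVE853 and 23.4 ± 6.81 in OVE918.

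Lyz2 encodes the lysozyme of macrophages and neutrophils and was the only one of the 10 with a log2 fold change below 0 in both lines. It had 8.09, 4.35 and 10.3 CPM in WT, 6.22, 3.04 and 3.98 CPM in OVE853 and 5.61, 3.09, 3.72 and 12.2 CPM in OVE918. The groups overlapped, and OVE918 replicate 4 was the highest of all libraries. The log2 fold changes were -0.77 (-1.93 to 0.39, FDR 0.333) and -0.28 (-1.35 to 0.80, FDR 0.739) in the filterByExpr fit, so that neither was called. Its near-identical paralog Lyz1 had 0 to 3 counts per library, and how reads that fit both genes were shared out was not tested. Without OVE918 replicate 4 the OVE918 value was its lowest of any library left out, -0.85, and without WT replicate 3 it was its highest, -0.02.

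C1qa, C1qb and C1qc encode the 3 chains of C1q, which are assembled in equal numbers, and lie side by side on the minus strand of chromosome 4 (GRCm39, GENCODE annotation: C1qb at chr4:136606009-136613511, C1qc at chr4:136616466-136620376 and C1qa at chr4:136623223-136626161). C1qa had 5.41, 3.46 and 9.68 CPM in WT, 17.3, 13.1 and 17.0 CPM in OVE853 and 20.3, 8.16, 12 and 23.1 CPM in OVE918. All OVE853 libraries lay above all WT libraries, whereas OVE918 replicate 2 lay below WT replicate 3. C1qb had 3.58, 1.96 and 6.00 CPM in WT, 12.2, 7.30 and 10.2 CPM in OVE853 and 11.1, 4.54, 7.54 and 15.5 CPM in OVE918. C1qc had 4.56, 3.19 and 7.33 CPM in WT, 12, 6.11 and 11.7 CPM in OVE853 and 11.4, 4.80, 10.9 and 12.9 CPM in OVE918. The 3 chains ranked the libraries alike at the low end: WT replicate 2 was the lowest of the 10 libraries for each of them.

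In the main test C1qa rose in OVE918, by a log2 fold change of 1.35 (SE 0.41, FDR 0.0446), which is 2.56-fold. In OVE853 its log2 fold change was also 1.35 (SE 0.43), with an FDR of 0.0586 that did not pass. C1qb had log2 fold changes of 1.36 (FDR 0.0744) and 1.32 (FDR 0.0665), and C1qc of 0.98 (FDR 0.120) and 0.98 (FDR 0.103), in OVE853 and OVE918. The C1qa call in OVE918 was lost, at FDRs up to 0.118 and with a log2 fold change no lower than 1.07, when any 1 library was left out other than WT replicate 3 or OVE918 replicate 2. Without WT replicate 3, C1qa, C1qb and C1qc all passed in OVE918 (log2 fold changes of 1.84, 1.81 and 1.36) and C1qa and C1qb passed in OVE853 (1.84 and 1.85). Without OVE918 replicate 2 the same held, at 1.56 for C1qb and 1.22 for C1qc in OVE918 and 1.35 for C1qa and 1.36 for C1qb in OVE853, and without OVE918 replicate 4 C1qa passed in OVE853 (1.35, FDR 0.0492).

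C1qa kept a like proportion to C1qb in all 3 groups, and the proportion of C1qc to C1qb was lower in OVE853 than in WT. There were 1.51 to 1.76 C1qa read pairs per C1qb read pair in WT, 1.42 to 1.79 in OVE853 and 1.49 to 1.84 in OVE918. C1qc gave 1.22 to 1.63 read pairs per C1qb read pair in WT, 0.838 to 1.14 in OVE853 and 0.828 to 1.44 in OVE918. Every OVE853 library thus lay below every WT library, while OVE918 overlapped WT. This difference was not tested, and the share of all genes with such a ratio to C1qb was not counted. These proportions are of reads and not of molecules, since the annotated exons of the 3 genes differ in length (1087 bp for C1qa, 2532 bp for C1qb and 1852 bp for C1qc).

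Promoter sequences are shown for C1qb and C1qc, the neighbouring C1q genes with a window, and for Cd68 and Gpnmb, which were called in OVE918. A RefSeq window (GRCm38.p6) was given for 7 of the 10 genes, and Csf1r, Adgre1 and C1qa had none. Each sequence is the 250 bases before the start of transcription, 5′ to 3′ on the strand of the gene, with matches to GAGGAA (the core of the site of PU.1, a factor of the myeloid lineage) or TGANTCA (an AP-1 site), on either strand, in capitals.
C1qb (chr4:136886201-136886450, minus strand): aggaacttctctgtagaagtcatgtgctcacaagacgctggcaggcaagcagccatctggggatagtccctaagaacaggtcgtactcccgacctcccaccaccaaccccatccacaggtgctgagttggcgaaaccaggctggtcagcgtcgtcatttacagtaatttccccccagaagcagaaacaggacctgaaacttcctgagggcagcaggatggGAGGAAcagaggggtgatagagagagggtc
C1qc (chr4:136892915-136893164, minus strand): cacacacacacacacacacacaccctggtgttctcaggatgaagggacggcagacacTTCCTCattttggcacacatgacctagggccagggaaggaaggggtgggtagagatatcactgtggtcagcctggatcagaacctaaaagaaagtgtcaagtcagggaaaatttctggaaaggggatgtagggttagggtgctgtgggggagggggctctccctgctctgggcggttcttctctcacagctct
Cd68 (chr11:69666171-69666420, minus strand): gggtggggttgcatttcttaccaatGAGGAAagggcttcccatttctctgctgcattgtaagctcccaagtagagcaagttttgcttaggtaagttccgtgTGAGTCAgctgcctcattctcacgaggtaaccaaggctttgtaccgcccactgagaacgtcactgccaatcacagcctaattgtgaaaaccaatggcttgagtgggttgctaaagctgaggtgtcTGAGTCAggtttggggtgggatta
Gpnmb (chr6:49036268-49036517, plus strand): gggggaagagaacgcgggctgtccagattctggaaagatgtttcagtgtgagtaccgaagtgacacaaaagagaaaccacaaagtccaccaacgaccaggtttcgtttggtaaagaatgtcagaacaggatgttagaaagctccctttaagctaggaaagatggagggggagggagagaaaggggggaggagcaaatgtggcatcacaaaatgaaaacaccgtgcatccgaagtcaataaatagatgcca
GAGGAA was found at -30 to -25 of C1qb, at -193 to -188 of C1qc on the opposite strand and at -225 to -220 of Cd68, counting the first transcribed base as 1. Over the windows of 300 bases, which run to base 50 of the transcript, GAGGAA was present in 5 of the 7 genes (C1qb, C1qc, Cd68, Aif1 and Ptprc) and in 28.3% of 32851 promoter windows. TGANTCA was present in 2 of the 7, at -149 to -143 and -24 to -18 of Cd68 and at 9 to 15 of Gpnmb, and in 7.81% of all windows. The letters TCACGTG (a MITF/TFE box, in 3.77% of windows) and TTGCGCAA (a C/EBP core, in 0.183%) were in 0 of the 7. No matches overlapped each other, and a match is a stretch of letters and not a site shown to be bound.

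In the main test, 4 of the 10 genes could be tested (C1qa, C1qb, C1qc and Gpnmb). Against WT, 0 of these 4 were called in OVE853 and 2 in OVE918 (C1qa and Gpnmb), where a call needs an FDR no higher than 0.05 and a log2 fold change of 1 or more in either direction by edgeR's quasi-likelihood test. Of all 11097 genes tested, 4.42% were called in OVE853 and 5.6% in OVE918. All 4 had an unadjusted p under 0.05 in OVE853, and DESeq2 called 3 of them there. For such counts, here and below, the shares of all genes at this p or called by DESeq2 were not counted. In the filterByExpr fit all 10 could be tested, and 0 were called in OVE853 (5 with an unadjusted p under 0.05) and 3 in OVE918 (C1qa, Cd68 and Gpnmb). Among the 6 genes outside the main test, DESeq2 called 1 in OVE853.

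The log2 fold change was above 0 for 9 of the 10 genes in each line, Lyz2 being the exception, against 49.6% of all genes in OVE853 and 51.3% in OVE918. The median over the 10 was 0.99 in OVE853 and 0.93 in OVE918, and over all genes -0.01 and 0.01. Every OVE853 library lay above every WT library for 4 genes (C1qa, C1qb, Cd68 and Gpnmb), against 21.0% of all genes, and every OVE918 library did so for 2 (Cd68 and Gpnmb), against 11.3%. Both lines were compared with the same WT libraries.

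**Figure D2:**
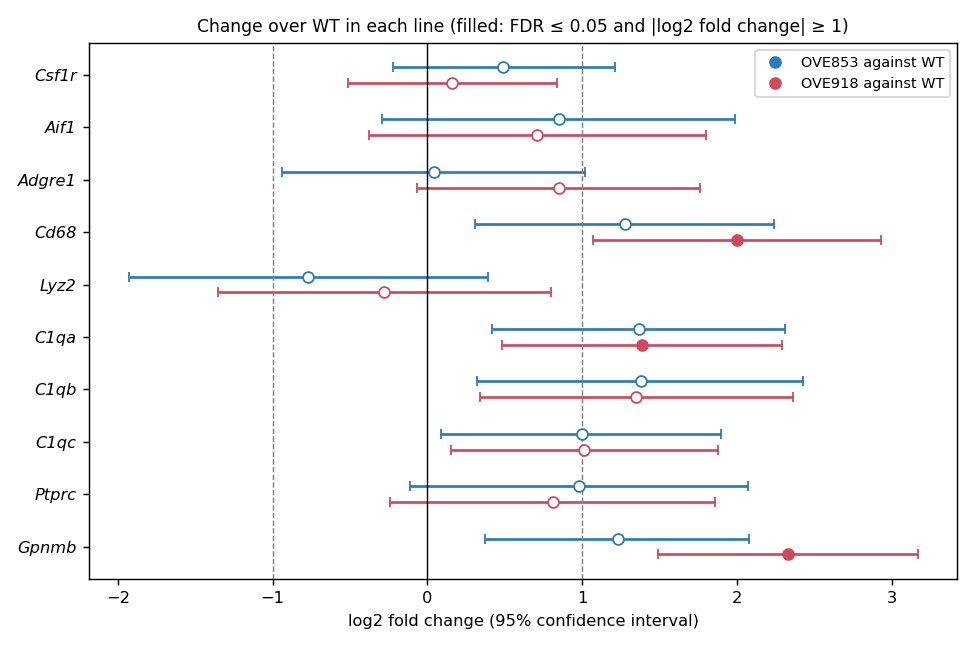
Change over WT of each of the 10 genes, as log2 fold change on the x axis, in OVE853 (blue, 3 against 3 pools) and OVE918 (red, 4 against 3 pools), from the fit on the 18058 genes that passed filterByExpr. Points are estimates, bars are 95% confidence intervals and filled points were called, which holds for C1qa, Cd68 and Gpnmb in OVE918. The estimates of 9 genes lie above 0 in both lines and those of Lyz2 below 0.

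Whether the lines differed was tested directly, as OVE918 against OVE853. In the main test 0 of the 4 genes were called, as against 0.487% of all genes, with 1 (Gpnmb) at an unadjusted p under 0.05 and 1 called by DESeq2. In the filterByExpr fit 0 of the 10 were called (0.244% of all genes), again with 1 at an unadjusted p under 0.05. C1qa differed by 0.00 on the log2 scale (-0.85 to 0.86), C1qb by -0.04 (-0.97 to 0.89) and C1qc by 0.00 (-0.81 to 0.82), so that these intervals leave room for a sizeable difference either way. For Gpnmb every OVE918 library lay above every OVE853 library, which held for 10.2% of all genes.

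The 10 genes were also read relative to Csf1r within each library. This ratio was chosen after the levels had been seen, and its values are a description without a test. Per 100 Csf1r read pairs there were 67.2, 71.4 and 78.2 C1qa read pairs in WT, 121, 143 and 145 in OVE853 and 183, 129, 143 and 206 in OVE918. The WT libraries were close to each other on this scale, although their C1qa level had spread from 3.46 to 9.68 CPM, and all libraries of both lines lay above them. C1qb gave 44.4, 40.5 and 48.4 read pairs in WT, 85.0, 79.8 and 87.0 in OVE853 and 99.2, 71.8, 89.8 and 139 in OVE918. C1qc gave 56.7, 65.9 and 59.2 in WT, 83.8, 66.8 and 99.4 in OVE853 and 103, 75.9, 129 and 115 in OVE918. All 3 chains were thus higher per Csf1r read in every library of both lines than in every WT library, which held for 2.38% of 18057 genes in OVE853 and 3.08% in OVE918.

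Lyz2 was lower relative to Csf1r in most libraries of the lines. It had 101, 89.7 and 83.6 read pairs per 100 of Csf1r in WT, 43.5, 33.2 and 33.9 in OVE853 and 50.4, 48.8, 44.2 and 109 in OVE918. The OVE853 libraries were all below the WT libraries, as for 21.7% of genes, and so were 3 of the 4 OVE918 libraries, while OVE918 replicate 4 was above them. In the same replicate the summed counts of 8 neutrophil markers were 29, against 1 to 7 in the other libraries, and their part in the Lyz2 level was not tested.

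Cd68 had 12.8, 18.3 and 5.10 read pairs per 100 of Csf1r in WT, 17.9, 13.8 and 19.4 in OVE853 and 31.9, 30.0, 29.6 and 48.6 in OVE918. Gpnmb had 188, 94.4 and 78.2 in WT, 149, 238 and 213 in OVE853 and 329, 628, 541 and 632 in OVE918. For both genes every OVE918 library lay above every library of the other groups, and OVE853 overlapped WT. A higher ratio in every OVE918 than every OVE853 library was found for 11.8% of genes. Adgre1 had 7.22 to 9.52 in WT, 4.64 to 6.67 in OVE853 and 8.41 to 16.5 in OVE918, so that OVE853 lay below WT and OVE918 overlapped it. For Aif1 (7.22 to 19.9 over all libraries) and Ptprc (3.17 to 10.0) the groups overlapped.

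**Figure D3:**
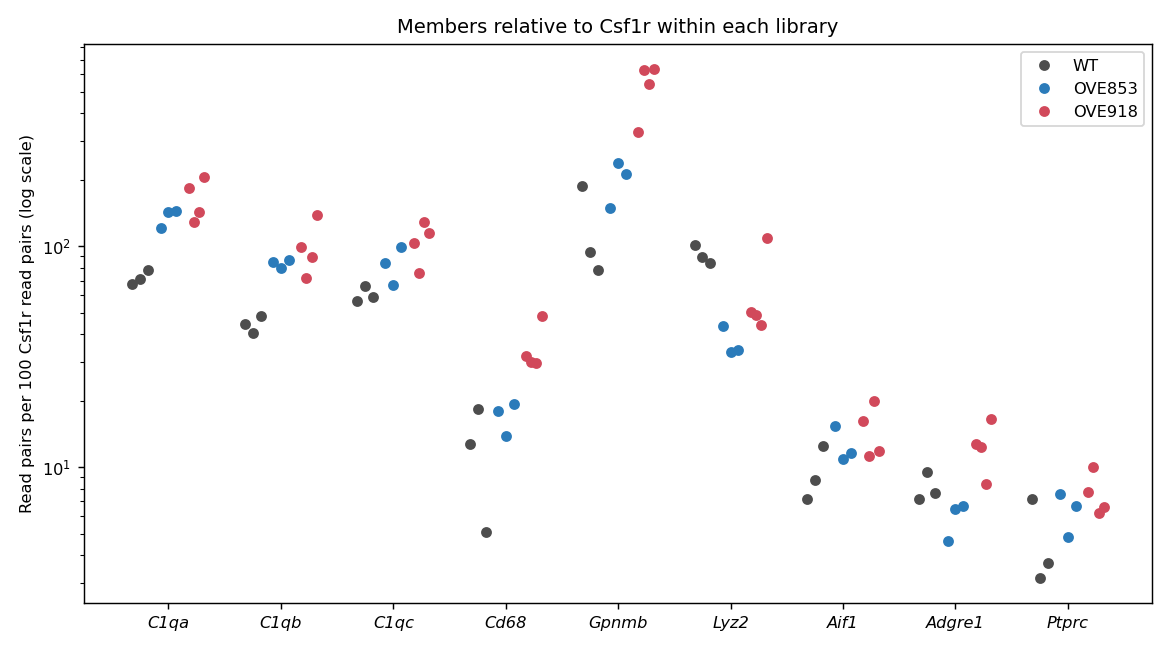
Read pairs of 9 genes per 100 Csf1r read pairs in the same library, on a log scale, for WT (grey, 3 pools), OVE853 (blue, 3 pools) and OVE918 (red, 4 pools). Each point is a library, and for the 3 C1q chains every blue and red point lies above every grey point, whereas for Lyz2 all blue points and 3 of the 4 red points lie below the grey ones.

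The genes whose course over the 10 libraries was most like the mean of 8 of the genes (Lyz2 and Gpnmb left out, since neutrophils and pigment cells also use them) were Slc37a1, Laptm5, Tyrobp, Cebpa and Klhl6. Likeness was the root mean square difference of centred log2 CPM, which was 0.192 for Slc37a1, 0.213 for Laptm5, 0.236 for Tyrobp, 0.253 for Cebpa and 0.269 for Klhl6, with a median of 0.801 over 9282 genes. Laptm5, a lysosomal protein of blood cells, and Tyrobp, an adaptor of myeloid receptors, were also on the list of lineage genes used here. Of the 8 genes C1qc was the nearest to their mean (0.180) and Cd68 the farthest (0.523). The genes most like Gpnmb were 4833422C13Rik (0.309), Aebp1 (0.338), Cdk15 (0.355), Csf2rb2 (0.363) and Krt23 (0.417), and those most like Lyz2 were Pltp (0.270), Eaf2 (0.338), S100a13 (0.353), Prr5l (0.376) and Gm32296 (0.395).

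Other genes of the lineage were read in the filterByExpr fit, since most lie under the FPKM minimum. Of 20 lineage genes, 4 were called higher in OVE853 and 5 in OVE918 with 0 lower, against 3.17% and 3.45% of all genes called higher, and their median log2 fold change was 1.10 and 1.05. Ctss, a lysosomal protease of antigen-presenting cells, had 5.27 ± 4.05 CPM in WT, 26.1 ± 6.60 in OVE853 and 20.6 ± 4.22 in OVE918 and was called in both lines (log2 fold changes 2.32 and 1.99), as was Mpeg1, a pore-forming protein of macrophages (1.62 and 1.44). Itgb2, an integrin chain of leukocytes, and Cd84, a surface receptor of leukocytes, were called in OVE918 (1.89 and 1.68). Laptm5 was called in OVE853 (1.31), and Lcp1, an actin-bundling protein named here after its values were seen, in both lines (1.28 and 1.17). Mertk, a receptor for the uptake of dying cells that is also used outside macrophages, was not called. With WT replicate 3 left out, Lcp1 was called in neither line, Laptm5 was called in OVE918 too (1.36), and Fcer1g and Itgam were called in both. The counts depended on single libraries: they ran from 1 (without OVE853 replicate 1 or OVE853 replicate 3) to 7 (without OVE918 replicate 2) in OVE853, with 2 without WT replicate 2, OVE853 replicate 2 or OVE918 replicate 3, and in OVE918 from 3 (without WT replicate 2, OVE853 replicate 1, OVE853 replicate 3, OVE918 replicate 3 or OVE918 replicate 4) to 7.

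Of 10 microglia genes 9 were in the count table and tested, and 1, Olfml3, was called higher, in both lines. Of all genes 3.17% were called higher in OVE853 and 3.45% in OVE918. Olfml3 is a secreted matrix protein that other cells make as well, and it had 133 ± 66.1 CPM in WT, 645 ± 21.4 in OVE853 and 428 ± 38.8 in OVE918 (log2 fold changes 2.29 and 1.71). Tmem119, a surface protein used to tell microglia from other macrophages and named here after its values were seen, had 6, 1 and 47 counts in WT, 131, 69 and 103 in OVE853 and 71, 33, 77 and 87 in OVE918. WT replicate 3 lay within the OVE918 libraries and below the OVE853 libraries, and neither difference was called (log2 fold changes 2.34 and 2.09, FDRs 0.0811 and 0.0968). These were the largest values of the list, whose median log2 fold change over 9 genes was 0.90 and 0.43. The purinergic receptors P2ry12 (1.65 and 0.68) and P2ry13 (1.69 and 0.59) and the lectin Siglech (-0.72 and -1.61), also named after their values were seen, were not called. When WT replicate 3 was left out, Tmem119 was called in both lines (4.43 and 4.20) and P2ry12 and P2ry13 in OVE853 (2.13 and 2.28).

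Genes of the macrophages of vessels, connective tissue and tissue borders were called lower. Of 10 such genes 9 were tested, and 6 were called lower in OVE853 and 5 in OVE918 with 0 higher, against 3.72% and 5.34% of all genes called lower. Mrc1, a mannose receptor, had 95, 40 and 85 counts in WT, 4, 5 and 5 in OVE853 and 3, 3, 7 and 10 in OVE918, and fell by 4.16 and 3.57 on the log2 scale (FDRs 0.00133 and 0.000751). F13a1, a clotting factor subunit of macrophages, had 39 to 60 counts in WT, 1 to 2 in OVE853 and 0 to 3 in OVE918, and Pf4, a chemokine of platelets and macrophages, had 11 to 26, 0 to 1 and 0 to 3. Both were called lower in both lines. Cd163, a haemoglobin scavenger receptor, had 11 to 31 counts in WT and 0 in every OVE853 library, at least 6.59-fold lower when 3 counts per library are taken as the floor. In OVE918 it had 1 to 8 counts and was not called. Mrc1, F13a1, Pf4 and Cd163 had at least 11 counts in each WT library and at most 10 in any library of the lines. They thus entered this fit through the group where they were high, and the number called lower depends on that filter.

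The remaining calls of that list, Cbr2 and Lyve1, were outside the rule for named genes and were also lower in both lines. Lyve1 had 217 counts in WT replicate 3 out of 17 to 217 over WT, and without that library it was not called (-1.70 and -0.94), so that 5 genes were called lower in OVE853 and 4 in OVE918, the lowest counts with any 1 library left out. Stab1 (log2 fold changes 0.99 and 0.56) and Folr2 (0.55 and 0.21) went the other way and were not called. Their levels were 40.8 ± 18.2, 80.5 ± 9.45 and 59.6 ± 12.4 CPM for Stab1 and 2.99 ± 0.367, 4.33 ± 0.641 and 3.42 ± 0.373 CPM for Folr2 in WT, OVE853 and OVE918. The summed level of the list, of which Stab1 made most, was 43.4 to 73.3 CPM in WT, 74.8 to 93.3 in OVE853 and 47.5 to 74.1 in OVE918. Over the 9 genes the median was -2.72 in OVE853 on the log2 scale, with Cd163 at its bound, and -2.60 in OVE918. Stab1 and Folr2 were the only genes of the list to reach the FPKM minimum, so that all of these calls are of the filterByExpr fit. Genes of the ciliary epithelium, a tissue beside the lens, fell too. Of 6 such genes 4 in OVE853 and 5 in OVE918 were called lower, against 3.72% and 5.34% of all genes. Car2 alone was called higher, in both lines, against 3.17% and 3.45% of all genes. Best2, a chloride channel of that epithelium, had 39.9 ± 10.4 CPM in WT, 7.59 ± 1.85 in OVE853 and 2.22 ± 1.31 in OVE918. The part of neighbouring tissue in the fall of the border macrophage genes was not tested.

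**Figure D4:**
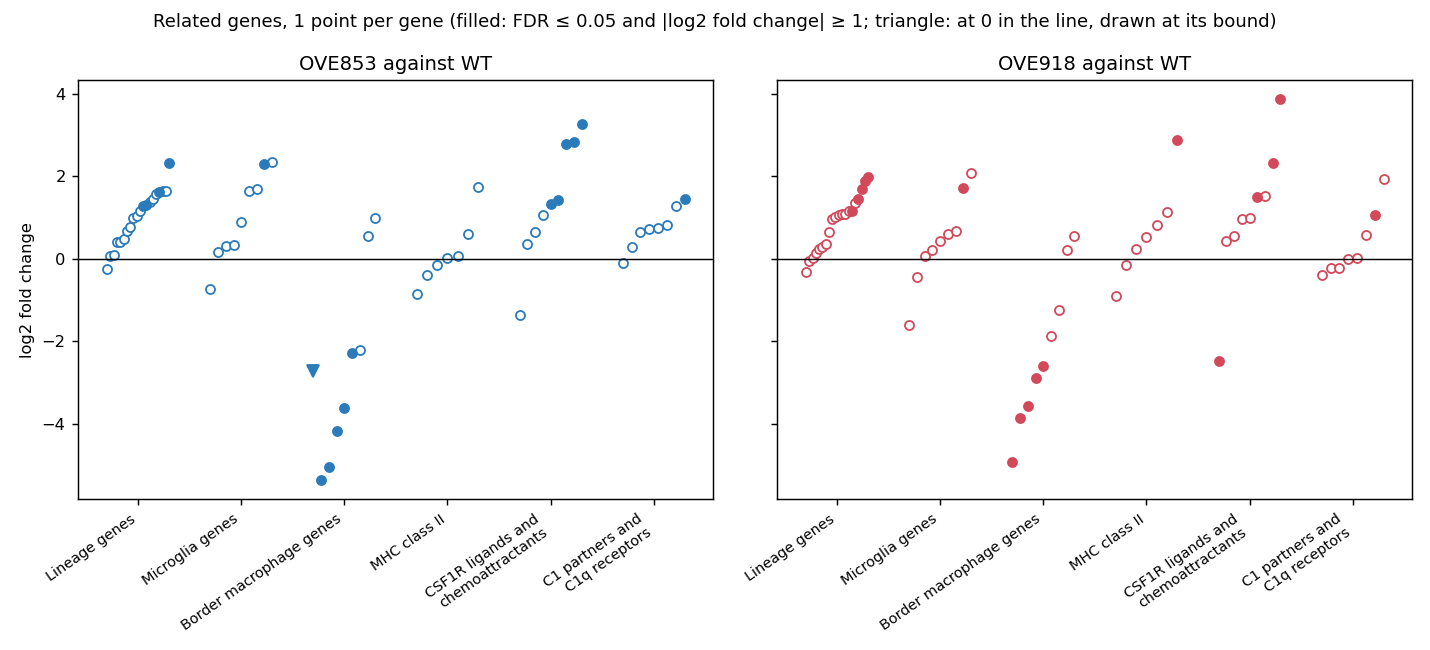
Log2 fold changes against WT of genes in 6 lists related to macrophages, on the y axis, in OVE853 (left, blue) and OVE918 (right, red), from the fit on all genes that passed filterByExpr. Each point is a gene, filled points were called, and the triangle is Cd163, which had 0 counts in every OVE853 library and is drawn at its bound. Of the border macrophage genes 6 and 5 were called lower (3.72% and 5.34% of all genes), and of the lineage genes 4 and 5 higher (3.17% and 3.45%).

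Csf1 and Il34 encode the ligands of CSF1R. Csf1 had 15.6 ± 2.22 CPM in WT, 41.8 ± 3.90 in OVE853 and 29.8 ± 4.53 in OVE918. It rose in OVE853 (log2 fold change 1.43, FDR 0.00026) and missed the fold change threshold in OVE918 (0.96, FDR 0.00112) in the filterByExpr fit. Il34 had 7.42 ± 2.99, 2.86 ± 0.252 and 1.30 ± 0.672 CPM and fell by 2.48 on the log2 scale in OVE918 (FDR 0.00158), with -1.36 in OVE853 (FDR 0.0507). The monocyte chemoattractants Ccl2 and Ccl7 rose in both lines, Ccl2 from 3.72 ± 1.06 CPM in WT to 26.4 ± 7.61 in OVE853 and 18.5 ± 6.96 in OVE918, and Ccl7 from 2 to 13 counts in WT to 44 to 112 in OVE853 and 67 to 134 in OVE918. Of the 9 of 12 ligand and chemoattractant genes tested, 5 were called higher in OVE853, and 3 higher and 1 lower in OVE918. Of all genes 3.17% were called higher in OVE853, and 3.45% higher and 5.34% lower in OVE918.

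Genes of the proteins that C1q works with were read in the filterByExpr fit, where 6.89% of all genes were called in OVE853 and 8.79% in OVE918. Of 8 genes for the C1 proteases, their inhibitor and C1q receptors, 1 was called in OVE853 (Serping1, the C1 inhibitor, log2 fold change 1.46) and 1 in OVE918 (Calr, a chaperone that also binds C1q, 1.07), both higher, though Calr missed the fold change threshold without WT replicate 3 (0.99). The proteases C1ra and C1s1, named here after their values were seen, missed only the fold change threshold in OVE853 (0.72, FDR 0.0317, and 0.66, FDR 0.0141). In OVE918 their log2 fold changes were -0.23 and -0.22 (FDRs 0.402 and 0.282). In the main test OVE918 differed from OVE853 by -0.96 (FDR 0.0382) for C1ra and -0.89 (FDR 0.018) for C1s1, short of the fold change threshold. C1qbp, a C1q-binding protein of mitochondria, had 51.5 ± 3.26 CPM in WT, 47.9 ± 1.99 in OVE853 and 50.5 ± 4.16 in OVE918. Of 7 MHC class II genes 0 were called in OVE853 and 1, Ciita, in OVE918, with 0 to 3 counts in WT and 3 to 16 in OVE918. Ciita passed filterByExpr through OVE918, where it was high. Cd74, the class II invariant chain, had 8.15 ± 6.92, 7.18 ± 2.95 and 14.1 ± 10.2 CPM and was not called.

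Markers of B cells, mast cells and neutrophils had few counts. The 5 B cell markers summed to 0 to 18 counts per library, the 5 mast cell markers to 0 to 1 and the 8 neutrophil markers to 1 to 29. Gzma, a protease of cytotoxic cells, had 0 counts in every library, and the 5 natural killer cell markers summed to 1 to 28. Trac had 0 counts in every library and Cd3e 0 to 2. Of 8 T cell markers 2 passed filterByExpr, and both were called higher in OVE853 (Cd3g, 2.57, and Lck, 1.07) and Cd3g in OVE918 (2.82). Of all genes 3.17% were called higher in OVE853 and 3.45% in OVE918. Cd3g had 1 to 14 counts in WT, 41 to 67 in OVE853 and 40 to 67 in OVE918, and Lck 54 to 65, 131 to 175 and 82 to 114. Cd3g passed the filter through the lines, where it was high, so that the number of tested markers called depends on that filter. Of 8 monocyte genes 3 were tested and Fn1, which epithelial and mesenchymal cells also make, was called higher in both lines, while Ly6c2 had 0 counts in every library. Of 6 dendritic cell genes 1, Zbtb46, was tested and 0 were called, at 117 to 133 counts in WT, 154 to 211 in OVE853 and 126 to 222 in OVE918.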

How the data were processed

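RNA of 10 pools of mouse lens epithelium was sequenced as paired reads of 150 bp. After trimming with Cutadapt 5.2, the authors aligned reads to mm39 with STAR 2.7.11b and counted read pairs on RefSeq exons in reverse-stranded mode with featureCounts 2.0.8, and the deposited counts are not normalized. Reads that fit several genes could be lost in this step, and opposite-strand genes are told apart. The count table holds 50763 genes, with a library total of 24073311 to 31908525, and intervals on low counts are set by counting error as well as by the spread between pools.

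The tests were run in edgeR 4.0.16 under R 4.3.3, with limma 3.58.1, using TMM factors, robust dispersions, a quasi-likelihood fit of 3 groups and Benjamini-Hochberg adjustment over all genes of a contrast. The 11097 genes that reached 2 FPKM in 5 libraries were tested. Lengths were the merged exons of primary transcripts in GENCODE vM39, found for 43274 genes by symbol or synonym. The fit on 18058 genes that passed filterByExpr was the stated alternative for genes below this minimum. The 10 genes, the lists of related genes and the tests were chosen with earlier results of these data known. All 10 genes are described. From each list the text names up to 4 called genes by largest change and up to 3 by highest CPM, and says where others are named. Genes alike in course were taken from those whose centred log2 CPM (prior count 2) spans at least 1.

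On simulated counts with 200 genes changed 4-fold in each line, 194 and 195 were recovered in OVE853 and OVE918 among 11097 genes, and 149 and 156 among 18058 genes, with 0 to 8 false calls per comparison. The changed genes were drawn from those above a minimum mean count, and no change smaller than 4-fold was simulated. Recovery of smaller changes, such as those estimated for C1qb and C1qc, was not measured. Alternatives were DESeq2 1.42.0, upper-quartile normalization, other filters, a fit without robust estimation, a fit of only the groups compared, a replicate block and leaving out each library. Leaving out each library for the counts of lineage, border macrophage, pigment cell, ciliary and endothelial genes, and the ratios to Csf1r, were chosen after seeing the data. Tests measure the spread between pools. Values of some single genes of the related lists are not reported here.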

Additional observations from a re-analysis of the deposited data

How the results depend on the processing

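Of 503 alternatives over the 30 log2 fold changes of the 10 genes, 446 kept direction and call, 24 gained and 11 lost the call, and 22 changed sign. All calls lost were of C1qa in OVE918, and besides the libraries left out these came with a replicate block (FDR 0.0511), a fit of only the groups compared (0.0908) and a test of every gene with a count (0.107). Of the 4 genes in the main test, 0 were called in OVE853, but 3 with DESeq2, 1 without robust estimation, 1 in a fit of only the 2 groups, 2 with the replicate block and 0 to 2 with 1 library left out. In OVE918 the 2 calls became 3 with DESeq2, which added C1qb (FDR 0.00776), 1 in a fit of only the 2 groups and 1 to 4 with 1 library left out. Between the lines the 0 calls became 1 with DESeq2 and 1 in a fit of only the 2 groups, Gpnmb in both (FDRs 0.0167 and 0.0319). Of the 6 genes below the FPKM minimum, 0 were called in OVE853, but 1 with DESeq2 and 0 to 1 with 1 library left out (Cd68 in both). The number of related genes called, 18 in OVE853 and 19 in OVE918 in the main test, was 29 and 37 when every gene with a count was tested, 34 and 40 with filterByExpr, and 11 to 18 and 15 to 21 with 1 library left out. The lineage genes called higher ranged from 1 to 7 in OVE853 and from 3 to 7 in OVE918 with 1 library left out, the pigment cell genes called lower from 1 to 3 and from 2 to 3, and the endothelial genes called higher from 0 to 2 and from 0 to 4.

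The changes of sign were of values near 0, none of them called. Between the lines they were, with the replicate block, Lyz2 (-0.07), C1qa (-0.29) and C1qc (-0.17), and with upper-quartile normalization C1qb (0.00). With 1 library left out, values ranged between the lines from -0.36 to 0.25 for Aif1, from -0.08 to 0.84 for Lyz2, from -0.23 to 0.22 for C1qa, from -0.36 to 0.20 for C1qb, from -0.25 to 0.24 for C1qc and from -0.44 to 0.19 for Ptprc. Against WT they ranged from -0.16 to 0.35 for Adgre1 in OVE853 and from -0.09 to 0.52 for Csf1r in OVE918. The cause was not tested.

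Replicate numbers do not pair the pools: the correlation of deviations from the group means was -0.343 to 0.265 over 9 pairs with the same number and -0.393 to 0.445 over 24 pairs with different numbers. The replicate block called C1qa and C1qb in OVE853 and C1qb and Gpnmb in OVE918, and in it OVE918 replicate 4, alone with its number, carries no information on the groups. Depth limits Ptprc most, at 4 to 36 counts per library, followed by Aif1 and Adgre1.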

Other observations

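Genes that macrophages switch on when they take up lipid and debris were called in both directions. Of 15 such genes, all tested in the filterByExpr fit, 3 were called higher and 1 lower in OVE853. In OVE918 3 were called higher and 3 lower. Of all genes 3.17% and 3.45% were called higher and 3.72% and 5.34% lower in OVE853 and OVE918. The median log2 fold change of the 15 was -0.04 and 0.47. Spp1, a secreted phosphoprotein that many cell types make, had 0.812 ± 0.623 CPM in WT, 21.2 ± 7.10 in OVE853 and 78.2 ± 61.0 in OVE918. Cst7, an inhibitor of lysosomal proteases in leukocytes, had 0 to 3 counts in WT, 18 to 43 in OVE853 and 19 to 25 in OVE918, and was called in both lines. Cst7 passed the filter through the lines, where it was high. Apoe, a lipid carrier, fell from 1680 ± 763 CPM in WT to 701 ± 104 in OVE853 and 428 ± 90.4 in OVE918, and missed the fold change threshold in OVE853 without WT replicate 3 (log2 fold change -0.87). Igf1, a growth factor of macrophages and other cells, fell in OVE918 (log2 fold change -1.90). Axl, called higher in both lines, and Lpl, called lower in OVE918, fall outside the rule for named genes.

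Of 7 endothelial genes 1 was called higher in OVE853 (Cdh5) and 4 in OVE918 (Cdh5, Pecam1, Cldn5 and Tie1) in the filterByExpr fit, with 0 lower. Of all genes 3.17% were called higher in OVE853 and 3.45% in OVE918. Cdh5, the cadherin of vessel walls, had 8 to 38 counts in WT, 114 to 240 in OVE853 and 74 to 117 in OVE918. Pecam1, which macrophages and platelets also carry, had 11 to 36, 37 to 110 and 42 to 108 counts. Kdr, a receptor for vessel growth factors and the gene of the list with the highest WT level, had 345, 396 and 3218 counts in WT, 186 to 380 in OVE853 and 144 to 330 in OVE918 and was not called (log2 fold changes -2.22 and -2.28, FDRs 0.0806 and 0.0517). Without WT replicate 3, which holds the 3218 counts, its values were -0.64 and -0.67, and Cldn5 and Pecam1 were not called in OVE918. The OVE918 count of 4 was also 1 without WT replicate 2, 2 without OVE853 replicate 3 and 0 without OVE918 replicate 3 or OVE918 replicate 4, and the OVE853 count of 1 was 0 without OVE853 replicate 1 and 2 without WT replicate 1. The summed level of the 7 genes was 56.1 to 140 CPM in WT, 42.3 to 57.3 in OVE853 and 48.6 to 68.7 in OVE918. Of 6 erythrocyte genes 4 were tested and 0 were called in either line.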
